A study of Homo sapiens with 4 samples.

Results

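The 9 long noncoding RNAs described here were MALAT1, NEAT1, TUG1, NORAD, KCNQ1OT1, OIP5-AS1, CYTOR, PVT1 and CCDC26. They were chosen by name, as the rows of the expression table whose Ensembl identifiers carry these symbols in GENCODE release 44, and all 9 were found among 58735 genes, of which 14734 are annotated as lncRNA genes. RNA-seq was carried out in cells labelled NB4, which is a leukemic promyelocyte line of human origin. Of the 4 libraries, 2 came from cells labelled NC and as having no treatment, the control, and 2 from cells given 25 nM GNE987 for 24 h. GNE987 is a degrader, a small molecule with 2 ends that ties a protein to a ubiquitin ligase and so marks it for destruction. The comparison asks how RNA levels differed in its presence, and the labels name no transgene, second agent or separate cultures, so P values here measure only the spread between these libraries.

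MALAT1 and NEAT1 are transcripts that stay in the nucleus, MALAT1 in the nuclear speckles where splicing factors collect and NEAT1 as the scaffold of paraspeckles. NORAD and OIP5-AS1 are mostly cytoplasmic. NORAD holds repeated binding sites for Pumilio proteins, and OIP5-AS1 is known for an extended site for the microRNA miR-7. TUG1 is found in both compartments. KCNQ1OT1 is the paternally expressed antisense transcript of an imprinted domain, CYTOR lies in a duplicated stretch of chromosome 2, and PVT1 and CCDC26 lie on the telomeric side of MYC, a transcription factor that drives growth in many leukemias.

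The authors deposited FPKM values, which are fragments per gene scaled by gene length and library. Reads were recovered here from the steps of these values and gave about 16880731 and 16680595 gene reads for the control pair and 10906694 and 11356967 for the treated pair, so the GNE987 libraries were the shallower. These totals are estimates, because the gene lengths used for the deposited values are not given in the sources used here. The libraries also differed in composition. Mitochondrial genes took 4.32% and 5.24% of the reads in the controls and 17.8% and 17.3% with GNE987, and GAPDH, a glycolytic enzyme gene often used for scaling, rose from 398 and 432 FPKM to 1501 and 1499 FPKM. The label was checked against cell markers. The promyelocyte granule gene MPO was at 0.0246 and 0 FPKM in the controls and at 11.8 and 11.3 FPKM with GNE987, while CTSG was at 0 in all 4 libraries and ELANE in 3. The myeloid surface gene CD33 went the other way, from 0.836 and 0.915 FPKM to 0.460 and 0.284 FPKM. Of the 8 tested promyelocytic markers 4 were called higher, 1 lower and 3 neither, and of the 8 tested erythroid markers 3 were called higher and 4 lower. The erythroid factor GATA1 was at 124 and 122 FPKM in the controls and at 15.1 and 12.5 FPKM with GNE987. The summed level of 11 promyelocytic markers was 18.4 to 21.2 FPKM in the controls and 70.9 to 73.3 FPKM with GNE987, and that of 8 erythroid markers was 318 to 319 and 320 to 370 FPKM. Much of the promyelocytic rise came from RARA, at 6.56 and 5.43 FPKM in the controls and 38.9 and 39.5 FPKM with GNE987. SPI1 and PML had log2 fold changes of -0.72 and -0.93. In the controls MPO was near 0 and the erythroid sum lay far above the promyelocytic sum, which goes against the promyelocyte label. The groups were taken from the labels. The B-lymphoid gene CD79A was at 0.0867 and 0 FPKM in the controls and at 23.4 and 21.4 FPKM with GNE987, and the 3 lymphoid markers summed to 0.936 to 0.950 and 22.0 to 23.7 FPKM. The part of these marker differences in the results was not tested. In bulk RNA, fewer cells of a type and less RNA per cell cannot be told apart.

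NEAT1, NORAD and KCNQ1OT1 were higher with GNE987, OIP5-AS1, CYTOR and CCDC26 were lower, and MALAT1, TUG1 and PVT1 did not pass both thresholds. A gene was called where the unadjusted P value of limma was under 0.05 and the fold change over 2 or under 0.5. The study's methods name the same thresholds. The tested genes were the 16668 that averaged 0.5 FPKM or more, among them 7 of the 9 RNAs. Of these 7, 2 were called higher and 2 lower, beside 33.6% called higher and 24.9% called lower of all tested genes. Among 2437 tested lncRNA genes the shares were 51.3% higher and 13.8% lower. KCNQ1OT1 and CCDC26 had means under 0.5 FPKM and were fitted only without that filter, where 26.6% of 32895 genes above 0 were called higher and 15.6% lower. Both GNE987 libraries lay above both controls for 6 of the 9 RNAs and below them for 3, and among all tested genes such separation was common, with 47.5% above and 41.6% below.

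**Figure D1:**
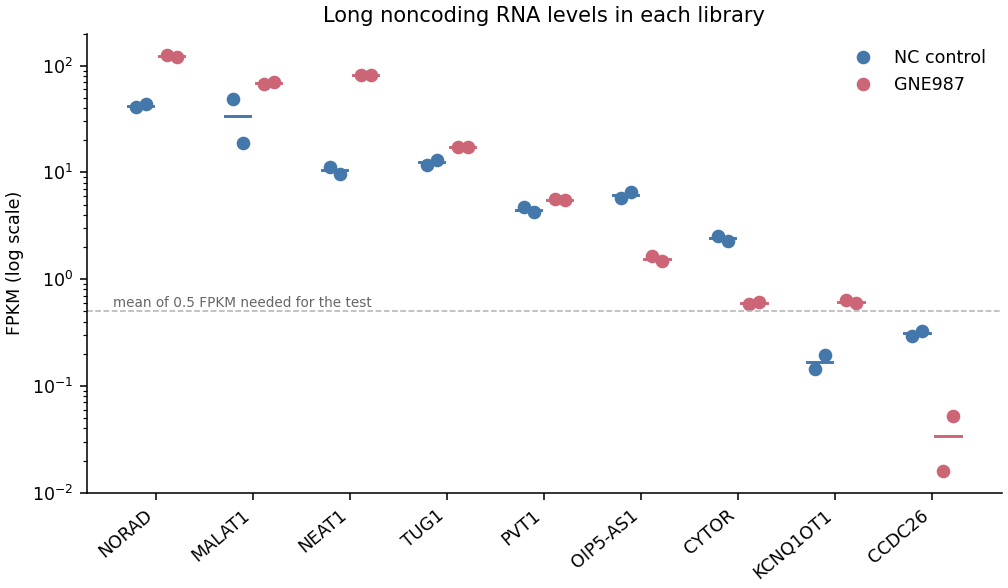
FPKM of the 9 RNAs on a log axis, with 1 point per library and a bar at the mean of each group (n = 2). The groups do not overlap for any of the 9, the control libraries of MALAT1 lie far apart at 48.6 and 18.9 FPKM, and the dashed line marks the mean of 0.5 FPKM below which KCNQ1OT1 and CCDC26 fell.

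In level per length, NORAD was the most abundant of the 9 in both groups, with means of 42.3 FPKM in the controls and 122 FPKM with GNE987. In the controls it was followed by MALAT1 at 33.7, TUG1 at 12.5, NEAT1 at 10.5, OIP5-AS1 at 6.13, PVT1 at 4.49, CYTOR at 2.41, CCDC26 at 0.313 and KCNQ1OT1 at 0.169 FPKM. The values of NORAD and MALAT1 overlapped between libraries and those of the other neighbours in this order did not. With GNE987 the order was NORAD, NEAT1 at 82.4, MALAT1 at 68.9, TUG1 at 17.2, PVT1 at 5.55, OIP5-AS1 at 1.56, KCNQ1OT1 at 0.614, CYTOR at 0.601 and CCDC26 at 0.0341 FPKM, and here KCNQ1OT1 and CYTOR overlapped. NEAT1 thus moved from rank 4 to rank 2 and OIP5-AS1 from rank 5 to rank 6.

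NEAT1 (ENSG00000245532, hg38 chr11:65422774-65445540, plus strand) showed the largest rise among the 7 tested RNAs, on the deposited scale as under the GAPDH, total-read and quantile scalings. It was at 11.3 and 9.70 FPKM in the controls and at 82.3 and 82.6 FPKM with GNE987. Both treated libraries lay far above both controls and differed from each other by under 1%. The mean rose 7.86-fold, with a log2 fold change of 2.97 ± 0.09 (SE, n = 2 per group) and an adjusted P value of 0.000171 (limma, Benjamini-Hochberg over all tested genes), and it stayed positive under every scaling tried, with 1.12 as the lowest value, under scaling to GAPDH. Behind these values stood 5904 and 4887 reads in the controls and 15671 and 16588 with GNE987. The table gives 1 value for the whole gene of 22767 bases, so the short polyadenylated form and the long form that builds paraspeckles cannot be told apart.

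The 3′ end of the long form is shown because it is the feature NEAT1 shares with its neighbour MALAT1, and in both RNAs it is known to fold into a triple helix that stands in place of a poly(A) tail. Both stretches are on the plus strand of chromosome 11 and are given 5′ to 3′ from GENCODE transcripts, NEAT1 from chr11:65445451-65445540 and MALAT1 from chr11:65506032-65506116. The capitals mark the 2 runs of at least 10 bases that the stretches share, of 16 and 11 bases.
NEAT1: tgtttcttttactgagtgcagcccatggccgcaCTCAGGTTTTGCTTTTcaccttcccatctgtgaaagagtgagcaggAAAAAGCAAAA
MALAT1: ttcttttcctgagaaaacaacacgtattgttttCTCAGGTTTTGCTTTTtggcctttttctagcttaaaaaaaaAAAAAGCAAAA
The first run is rich in T (U in the RNA) and the second in A. In NEAT1 the second run ends at the last annotated base, whereas in MALAT1 it ends 1957 bases before the end of the longest annotated transcript, just before the tRNA-like part that is cut from the MALAT1 precursor. The run of 16 bases was found in the longest transcript of 2 of 2437 tested lncRNA genes, which were MALAT1 and NEAT1.

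MALAT1 (ENSG00000251562, hg38 chr11:65497640-65508073, plus strand) did not follow NEAT1 beyond its own spread. It was at 48.6 and 18.9 FPKM in the controls and at 67.7 and 70.1 FPKM with GNE987. The treated libraries lay above both controls and close together, and the controls differed by 2.57-fold. The log2 fold change was 1.18 with a 95% interval from -0.21 to 2.58 and an adjusted P value of 0.0944 (limma, Benjamini-Hochberg), an interval that holds both 0 and values above the 2-fold threshold. Leaving out control replicate 1, the higher one, gave 1.86 and a call, in a fit where the single control left is assumed to vary as the treated libraries do. Leaving out control replicate 2 gave 0.50, and scaling to GAPDH gave -0.67.

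The gap between the controls was large for a gene of this level. Across the 3872 genes averaging 10 FPKM or more, the median gap between the control libraries was 0.08 on the log2 scale, that of MALAT1 was 1.36, and 41 genes (1.06%) had a gap at least as large. Of these 41 genes, 23 were higher in control replicate 1. The reads of MALAT1 were at least 9872 and 3685 in the controls and 4996 and 5462 with GNE987. What set the controls apart was not tested.

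Of the 3 tested genes upstream of NEAT1 within 100 kb, FRMD8 and DPF2 were lower and TIGD3 did not pass the threshold. FRMD8, whose end lies 9.25 kb upstream of NEAT1, was at 17.8 and 17.8 FPKM in the controls and at 8.51 and 8.31 FPKM with GNE987, a log2 fold change of -1.07. DPF2, a chromatin remodelling subunit 68.5 kb upstream of NEAT1, was at 9.93 and 8.91 FPKM and fell to 2.02 and 2.26 FPKM, a log2 fold change of -2.09. Both were called lower, and both stayed negative under the other scalings. Those scalings lower fold changes in general, so a fall could hardly turn into a rise. TIGD3 had a log2 fold change of 0.70, which turned negative under GAPDH, total-read and quantile scaling. The study's lists of genes with super-enhancers held FRMD8 as well as NEAT1 and MALAT1, and held no other of the long noncoding RNAs described here.

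**Figure D2:**
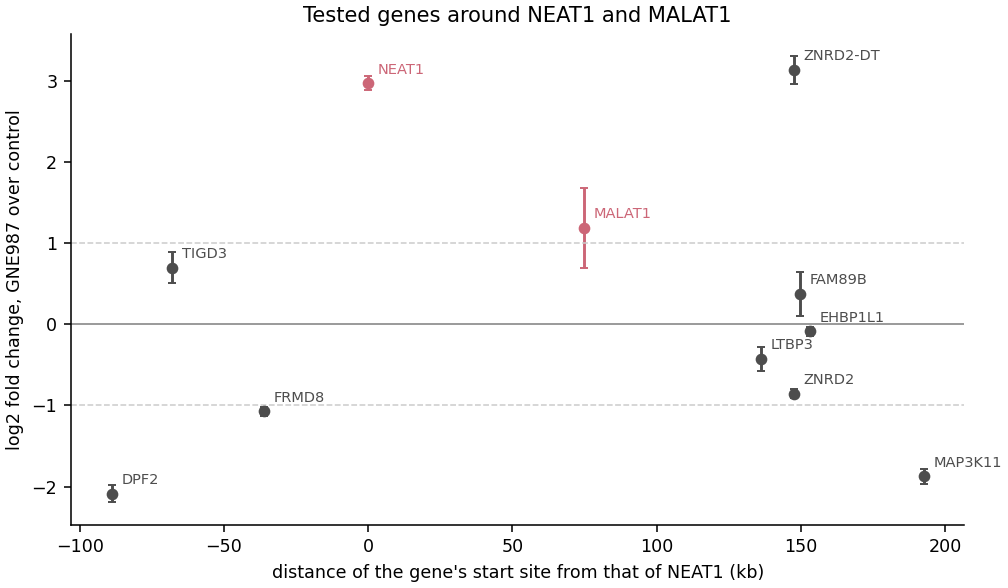
Log2 fold change (GNE987 over control, bars are SE, n = 2 per group) of tested genes within 100 kb of NEAT1 or MALAT1, 1 of which is left out, against the distance in kb of each start site from that of NEAT1. NEAT1 at 2.97 and ZNRD2-DT at 3.13 stand above the dashed line at 1, DPF2 at -2.09, MAP3K11 at -1.87 and FRMD8 at -1.07 stand below that at -1, and the bar of MALAT1 crosses the upper line.

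Paraspeckle proteins, which bind NEAT1, were read as a list of 14 genes. On the deposited scale 3 of the 14 (all tested) were called higher and 1 lower, beside 33.6% and 24.9% of all tested genes. The median log2 fold change of the list was 0.10 beside 0.17 for all tested genes. Scaling to GAPDH gave 0 higher and 11 lower, beside 3002 and 9683 of the 16668 tested genes. Scaling to total reads gave 2 higher and 3 lower, beside 4145 and 6695. SFPQ, a core protein without which paraspeckles do not form, rose from 89.4 and 93.1 FPKM to 325 and 330 FPKM, a log2 fold change of 1.84 that became -0.01 under scaling to GAPDH. RBM14, which is also needed to assemble them, rose from 29.7 and 31.2 FPKM to 146 and 150 FPKM, and its log2 fold change of 2.28 stayed positive under every scaling. NONO, the usual partner of SFPQ, was at 80.5 and 83.7 FPKM and at 88.3 and 89.99 FPKM, a log2 fold change of 0.12 that turned negative under GAPDH, total-read and quantile scaling. NUDT21, a subunit of the cleavage factor that acts at the poly(A) site of the short NEAT1 form, fell from 21.9 and 23.4 FPKM to 6.37 and 6.41 FPKM, a log2 fold change of -1.81. Its partner CPSF6 was at 20.5 and 20.2 FPKM and at 19.7 and 18.8 FPKM.

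Of 11 genes for MALAT1 processing and nuclear speckles, 3 were called lower and 0 higher by limma, beside 24.9% lower and 33.6% higher of all tested genes. At an unadjusted P under 0.05 by limma whatever the fold, 4 were higher and 5 lower. The share of all tested genes at that P alone is not given here. Limma-voom called 0 of the list higher and 5 lower, beside 4279 and 6801 among all genes fitted. The median log2 fold change of the list was -0.15, beside 0.17 for all tested genes. Under scaling to GAPDH these medians were -1.99 and -1.52. The list median was also negative under total-read and quantile scaling. These 3 scalings lower fold changes in general, so a negative median could hardly turn positive under them. The 3 genes called lower by limma were the splicing factors SRSF1 at -1.60 and SRRM1 at -1.07 and the RNA methyltransferase METTL16 at -2.56, which is known to bind the MALAT1 triple helix. METTL16 was at 5.34 and 6.01 FPKM in the controls and at 1.04 and 0.736 FPKM with GNE987. The large speckle proteins SON and SRRM2 had log2 fold changes of -0.15 and 0.64, of which that of SRRM2 turned negative under GAPDH, total-read and quantile scaling, and ELAC2, the enzyme that trims the tRNA-like end of MALAT1, had -0.82.

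**Figure D3:**
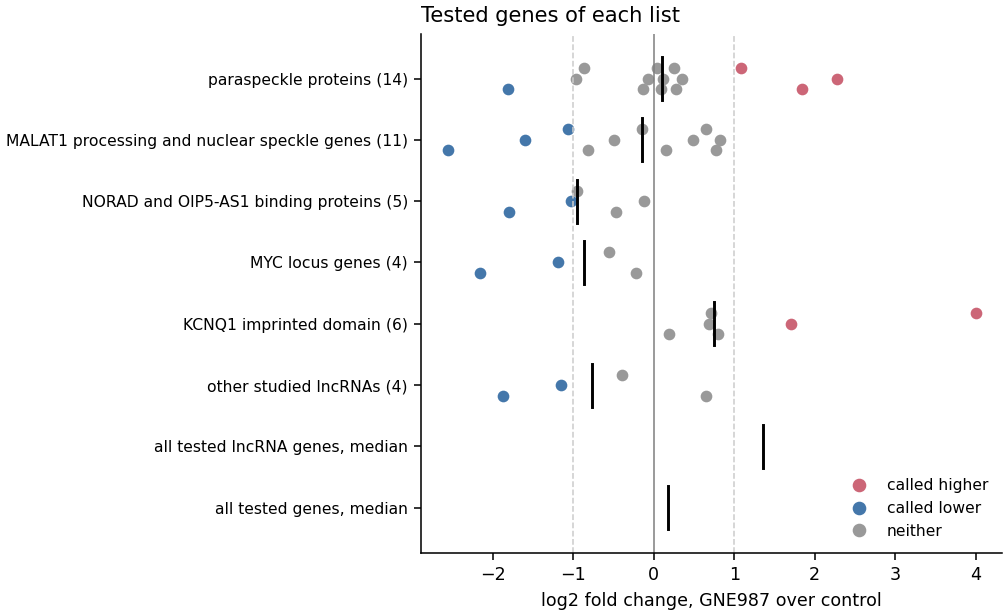
Log2 fold changes (GNE987 over control, deposited scale) of the tested genes of 6 lists, 1 point per gene, with a black bar at each list's median and the medians of all tested lncRNA genes (1.36) and of all tested genes (0.17) below. The number tested stands in brackets after each list's name. Of the listed genes, 5 were called higher and 10 lower on this scale, beside 5602 and 4148 of all 16668 tested genes. Under scaling to GAPDH 1 was called higher and 38 lower, beside 3002 and 9683 of all tested genes.

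NORAD (ENSG00000260032, hg38 chr20:36045618-36051018, minus strand) is a single-exon RNA of 5401 bases. It was at 41.2 and 43.4 FPKM in the controls and rose to 125 and 120 FPKM with GNE987. Replicates lay close together and the groups far apart. The mean rose 2.90-fold and the log2 fold change was 1.53 ± 0.05 (SE, n = 2 per group; adjusted P value 0.000186, limma), which fell to 0.73 under total-read scaling, 0.80 under quantile normalization and -0.32 under scaling to GAPDH.

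NORAD sequesters Pumilio proteins, which bind the motif TGTANATA, and a few of its sites are shown because they carry this function. On the transcript strand the longest NORAD transcript held 15 such sites, or 2.78 per kb. Of these, 10 had T at the fifth base, 4 had A and 1 had C. The sites below are on the minus strand of chromosome 20 (hg38), given 5′ to 3′ with the motif in capitals, and they show the most frequent form in 3 copies and the other forms in 1 copy each. Site 2 is at chr20:36049806-36049829, site 11 at chr20:36047974-36047997, site 14 at chr20:36047353-36047376, site 6 at chr20:36049121-36049144 and site 5 at chr20:36049495-36049518.
NORAD site 2: cactactgTGTATATAgttgacaa
NORAD site 11: ccctactgTGTATATAgcggacaa
NORAD site 14: tgctactgTGTATATAatggaaaa
NORAD site 6: taccacttTGTAAATAtctttttg
NORAD site 5: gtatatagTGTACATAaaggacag
Sites 2, 11 and 14 also share the bases ctactg before the motif. The other sites with T at the fifth base do not have these bases there. Of the tested lncRNA genes, 11.2% held at least 1 site in their longest transcript, and among the 152 with a longest transcript of 4000 to 7000 bases 35.5% did. In that length range 2 genes, NORAD among them, held 15 or more. NEAT1 held 6 sites, KCNQ1OT1 9, CCDC26 3, TUG1 2 and OIP5-AS1 1, at no more than 0.268 per kb, and MALAT1, CYTOR and PVT1 held 0.

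Of the Pumilio proteins, PUM2 moved opposite to NORAD on the deposited scale. It fell from 18.3 and 19.4 FPKM to 5.90 and 4.81 FPKM. Its log2 fold change of -1.80 stayed negative under the other scalings, and that of NORAD turned negative under scaling to GAPDH. Because these scalings lower fold changes in general, only a rise could readily change sign. RBMX, a NORAD partner, had -0.96, and ELAVL1 (HuR), which binds OIP5-AS1, had -0.12. CNBD2, the nearest tested gene at 14.9 kb downstream of NORAD, was at 0.0174 and 0.0271 FPKM in the controls and at 2.10 and 2.74 FPKM with GNE987.

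OIP5-AS1 (ENSG00000247556, hg38 chr15:41283958-41322392, plus strand), also known as cyrano, fell. It was at 5.77 and 6.48 FPKM in the controls and at 1.63 and 1.48 FPKM with GNE987, the latter on at least 173 and 166 reads. Both treated values lay far below both control values, with a factor of 3.93 between the means. The log2 fold change was -1.91 ± 0.11 (SE, n = 2 per group; adjusted P value 0.000514, limma), and it was negative and called under all alternatives.

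The miR-7 site of OIP5-AS1 is shown because it is the element for which this RNA is known, the site through which it directs the decay of the microRNA. The mature sequence of miR-7 is from RefSeq (GRCh38), with the seed, bases 2 to 8, in capitals. The sites are from exon 4 of the longest GENCODE transcript, 8881 bases long, on the plus strand of chromosome 15, with the match to the seed in capitals. They are site 1 at chr15:41298410-41298438, site 2 at chr15:41300573-41300601 and site 3 at chr15:41305853-41305881.
hsa-miR-7-5p: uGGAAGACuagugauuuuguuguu
OIP5-AS1 site 1: ttcagggtttaaaaaaaatGTCTTCCagt
OIP5-AS1 site 2: gaacaacaaaatcaccaatGTCTTCCatt
OIP5-AS1 site 3: catatcctgaatatagtttGTCTTCCcca
Beyond the seed, site 2 matched the microRNA over an unbroken run of 14 bases, against 5 bases for site 1 and 3 for site 3. Seed matches by themselves were common, at 11.8% of the tested lncRNA genes and at 12 of the 24 with a longest transcript of 7000 to 11000 bases. KCNQ1OT1 held 6 matches, CCDC26 2 and the other 6 RNAs 0. Mature microRNAs are not measured in these libraries.

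The genes at the OIP5-AS1 locus moved in both directions. OIP5, a centromere gene that overlaps OIP5-AS1 on the opposite strand, fell from 15.7 and 16.2 FPKM to 6.19 and 8.34 FPKM, a log2 fold change of -1.14. CHP1, which ends 2.07 kb upstream, rose from 13.1 and 13.3 FPKM to 37.5 and 35.3 FPKM, and NUSAP1, a spindle gene whose annotation overlaps on the same strand, rose from 2.37 and 2.92 FPKM to 7.49 and 9.58 FPKM. Their log2 fold changes of 1.45 and 1.65 turned to -0.39 and -0.16 under scaling to GAPDH. The labelled library kit does not mark strand, so reads from parts where these genes overlap cannot be assigned with certainty.

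CYTOR (ENSG00000222041, hg38 chr2:87454781-87636740, plus strand) fell by a like amount. It was at 2.56 and 2.27 FPKM in the controls and at 0.588 and 0.615 FPKM with GNE987, on at least 87 and 96 reads. Both treated libraries lay below both controls by a factor of 4.01 between the means. The log2 fold change was -1.84 ± 0.15 (SE, n = 2 per group; adjusted P value 0.00106, limma), and it was negative and called under all alternatives. MIR4435-2HG, a nearly identical copy of CYTOR elsewhere on chromosome 2, fell from 4.24 and 4.08 FPKM to 0.913 and 1.23 FPKM, a log2 fold change of -1.88. Reads could be split between the copies, so each value is uncertain. None of the 8 genes within 100 kb of CYTOR reached the level for a test.

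TUG1 (ENSG00000253352, hg38 chr22:30969245-30979395, plus strand), an RNA linked to Polycomb proteins and annotated as protein-coding in GENCODE release 44, differed little. It was at 11.8 and 13.2 FPKM in the controls and at 17.1 and 17.2 FPKM with GNE987. The treated libraries lay above both controls, and the log2 fold change of 0.46, with a 95% interval from 0.25 to 0.67 (adjusted P value 0.00712, limma), was below the 2-fold threshold. It was -0.33 under total-read scaling and -1.37 under scaling to GAPDH, so its direction was set by the scaling. MORC2, whose gene begins 0.471 kb from TUG1 on the opposite strand, had a log2 fold change of -0.04.

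KCNQ1OT1 (ENSG00000269821, hg38 chr11:2597308-2700003, minus strand) lies inside KCNQ1, a potassium channel gene, and silences genes of its domain on the paternal chromosome. It was at 0.144 and 0.194 FPKM in the controls and at 0.632 and 0.597 FPKM with GNE987. These are low values per length, but over a transcript of up to 91667 bases they rest on at least 303 and 394 reads in the controls and 484 and 483 with GNE987. Both treated libraries lay above both controls, with a mean 3.64-fold higher. Without the filter on low values the log2 fold change was 1.42 ± 0.26 (SE, n = 2 per group; adjusted P value 0.0204, limma), on a scale where the added 0.1 FPKM understates the change of such a gene. KCNQ1OT1 was not fitted under the other scalings, of which that to GAPDH shifted log2 fold changes by -1.85. Its call was thus not checked against them.

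Of the 12 listed genes of the KCNQ1 domain, 6 were tested, of which 2 were called higher on the deposited scale, beside 33.6% of all tested genes. Under scaling to GAPDH 1 was called higher and 4 lower, beside 3002 and 9683 of the 16668 tested genes. KCNQ1 itself was listed at 0 in both controls and at 1.32 and 1.71 FPKM with GNE987. CD81, a membrane protein gene, rose from 11.2 and 10.1 FPKM to 35.5 and 34.4 FPKM, a log2 fold change of 1.71 that became -0.14 under scaling to GAPDH. CDKN1C, the cell cycle inhibitor that KCNQ1OT1 is best known to silence, was at 3.40 and 2.57 FPKM and at 5.02 and 4.66 FPKM, and PHLDA2, a growth regulator of the domain, at 17.1 and 13.2 FPKM and at 26.7 and 22.5 FPKM. Their log2 fold changes of 0.69 and 0.70 did not pass the 2-fold threshold and turned negative under GAPDH and total-read scaling. The median of the list, 0.75, lies between the values of PHLDA2 and TSSC4 and does not depend on the value given to KCNQ1, the highest of the 6. KCNQ1OT1 and KCNQ1 overlap on opposite strands, and reads in shared parts cannot be told apart.

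PVT1 (ENSG00000249859, hg38 chr8:127794526-128187101, plus strand) and its neighbour MYC differed in their changes on the deposited scale. PVT1 was at 4.73 and 4.25 FPKM in the controls and at 5.57 and 5.53 FPKM with GNE987, with the treated libraries slightly above both controls. Its log2 fold change was 0.30 with a 95% interval from 0.05 to 0.55 (adjusted P value 0.0379, limma), and it turned to -0.48 under total-read scaling and -1.48 under scaling to GAPDH. MYC, 51.6 kb upstream on the same strand, fell from 91.5 and 90.4 FPKM to 40.3 and 39.5 FPKM, a log2 fold change of -1.19. Under total-read and GAPDH scaling, which lower fold changes in general, both PVT1 and MYC were lower. PVT1 has 190 annotated transcripts, and a single value per gene does not show which of them changed.

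CCDC26 (ENSG00000229140, hg38 chr8:128634199-129683770, minus strand), a leukemia-associated RNA whose gene body spans over a megabase, was at 0.296 and 0.330 FPKM in the controls and at 0.0158 and 0.0524 FPKM with GNE987. The treated values lay far below the controls but rest on few reads, at least 206 and 221 in the controls and 4 and 14 with GNE987. Without the filter the log2 fold change was -1.63 ± 0.29 (SE, n = 2 per group; adjusted P value 0.0201, limma), and the ratio of the means was 9.17. The treated libraries differed by 3.32-fold, so the size of the drop is imprecise.

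Of 22 listed genes of the MYC locus, 19 were in the table and 4 were tested. The median log2 fold change of these 4 was -0.87, beside 0.17 for all tested genes. Of the 4, 2 were called lower, beside 24.9% of all tested genes. They were MYC and LINC00861, an RNA at 1.56 and 2.14 FPKM in the controls and at 0.293 and 0.376 FPKM with GNE987. CYRIB and ASAP1, both regulators of the actin cytoskeleton, had log2 fold changes of -0.56 and -0.22. In the control libraries 9 of the 19 genes were listed at 0, CCAT2 and CASC8 among them.

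The scale of the libraries decided which of the smaller changes had a sign. The median log2 fold change of all tested genes was 0.17 on the deposited scale, -0.24 after quantile normalization, -0.58 under total-read scaling and -1.52 under scaling to GAPDH. Relative to the median of the same scale, NEAT1 lay 2.79 above it on the deposited scale and 2.64 above it under scaling to GAPDH. NORAD lay 1.36 and 1.21 above it and MALAT1 1.01 and 0.86. TUG1 and PVT1 lay close to the median, at 0.29 and 0.13 above it on the deposited scale and 0.15 and 0.04 under scaling to GAPDH. OIP5-AS1 and CYTOR lay below it, at -2.08 and -2.01 on the deposited scale and -2.02 and -1.69 under scaling to GAPDH. Scaling to GAPDH or to total reads divides each library by 1 factor. Apart from the effect of the added 0.1 FPKM, it shifts all genes by the same amount. The like distances from the median and the same order of the 7 RNAs on these scales were therefore nearly fixed in advance. Quantile normalization, which is not such a shift, exchanged OIP5-AS1 and CYTOR.

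**Figure D4:**
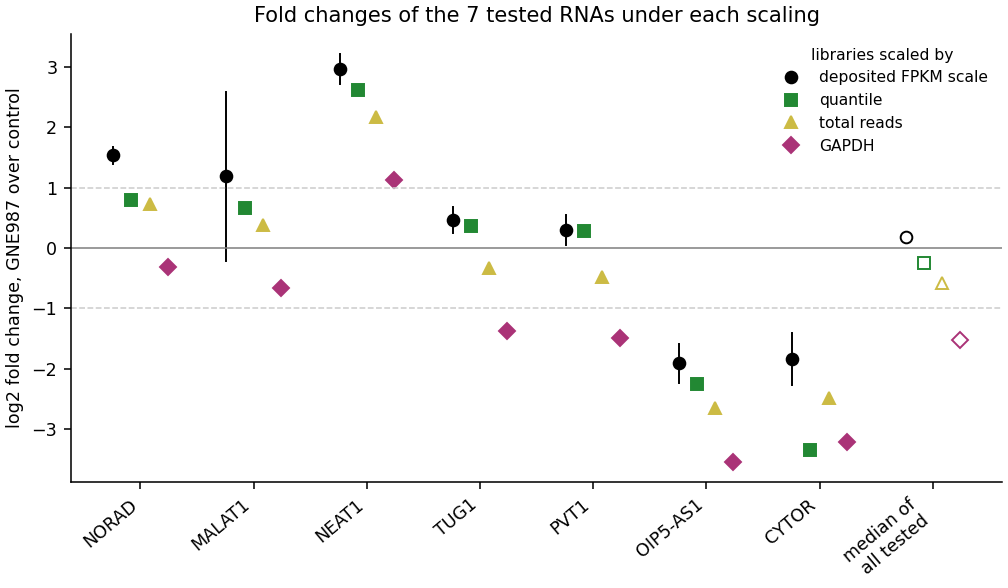
Log2 fold change (GNE987 over control) of the 7 tested RNAs under 4 ways of scaling the libraries, with 95% intervals on the deposited scale only, and open symbols for the median of all 16668 tested genes. NEAT1 is above 1 and OIP5-AS1 and CYTOR are below -1 under each, while NORAD, MALAT1, TUG1 and PVT1 cross 0 under at least 1 of them.

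The RNAs were also set beside lncRNA genes in general. The median log2 fold change was 1.36 over 2437 tested lncRNA genes, -0.29 over 10996 tested protein-coding genes and 0.46 over the 7 tested RNAs. Among 130 lncRNA genes averaging 10 FPKM or more the median was 3.44, with 78.5% called higher and 6.15% called lower. NEAT1, NORAD and MALAT1 belong to these 130 and had log2 fold changes below that median. The average was taken over all 4 libraries, so genes low in the controls could enter through their GNE987 values. The filter at 0.5 FPKM used the same average. The median of the 130 therefore cannot show whether the rise of NEAT1 was large for an abundant lncRNA gene.

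The RNAs differed in gene structure. Exons covered 100% of the gene body of MALAT1, NEAT1, TUG1 and NORAD and 90.2% of that of KCNQ1OT1. They covered 58.2% of OIP5-AS1, 9.77% of CYTOR, 6.48% of PVT1 and 4.87% of CCDC26. The 3 RNAs called higher (NEAT1, NORAD and KCNQ1OT1) were among the first 5 and the 3 called lower (OIP5-AS1, CYTOR and CCDC26) among the last 4, while MALAT1, TUG1 and PVT1 were not called. This split was noticed in the data, and lncRNA genes in general showed no such order. Their median log2 fold change was 1.31 for 666 tested lncRNA genes with an exon share of at least 90%, 1.21 for 828 with a share of 20% to 90% and 1.53 for 943 with a lower share.

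Of the 130 lncRNA genes averaging 10 FPKM or more, those whose values over the 4 libraries were most like NEAT1, by the distance between log2 values centred over the libraries, were the small nucleolar RNA hosts SNHG12 and SNHG19, at distances of 0.114 and 0.177. SNHG12 was at 7.87 and 6.98 FPKM in the controls and at 55.1 and 53.9 FPKM with GNE987. LINC00623 and SNHG4 were closest to both OIP5-AS1 (0.175 and 0.287) and CYTOR (0.183 and 0.346). LINC00623 was at 34.8 and 34.9 FPKM in the controls and at 10.5 and 9.72 FPKM with GNE987. With 4 libraries in 2 groups, these distances describe the group difference more than anything else.

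Within 100 kb of the 9 RNAs, 92 other genes were listed and 25 were tested. Of these 25, 9 were called higher and 6 lower, shares near the 33.6% and 24.9% of all tested genes, with a median log2 fold change of 0.38 beside 0.17 for all tested genes. CCDC26 had no tested neighbour within this distance. Of 13 other well-studied lncRNAs taken for comparison, 4 were tested, with 2 called lower, MIR4435-2HG and DLEU1 (-1.15), beside 13.8% of tested lncRNA genes, and the median log2 fold change was -0.77.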

How the data were processed

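RNA-seq was carried out by the authors in 4 libraries of cells labelled NB4, 2 labelled as having no treatment and 2 treated with GNE987. The authors mapped filtered reads with HISAT (HISAT2 2.0.5 on hg38 in the submitters' processing notes), used DESeq2 for differential expression, and deposited 1 FPKM value per gene and library. Dose and time come from the study's legends. The annotation and the counting program are not given in the sources used here. Identifiers were matched to GENCODE release 44 on hg38, which named 58207 of 58735 genes. Values were tested as log2(FPKM + 0.1) with limma 3.58.1 in R 4.3.3 (intensity trend, group only, two-sided) on the 16668 genes averaging 0.5 FPKM or more, with Benjamini-Hochberg adjustment over these genes. The added 0.1 FPKM understates changes of low genes.

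Reads were recovered from steps of the FPKM values with a tolerance of 0.01 read. At GENCODE exon lengths the values were whole reads in each of the libraries for 53.0% of genes above 0. For the rest a length that gave whole reads was searched, so their reads are uncertain and are given as lower limits. Median-ratio factors of the deposited values left every log2 fold change as it was. Sequences were read from GENCODE transcripts and RefSeq microRNAs. None is printed for genes on chromosome 8.

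The 9 RNAs and the lists were chosen with earlier results of these data known. The genes named were the 9 RNAs, list genes given with their values, the nearest tested neighbours and those on the study's super-enhancer lists, and, for the 3 RNAs with the largest change, the 2 most similar lncRNA genes. Further neighbours and markers were picked with their values in view. Alternatives comprised scaling to GAPDH, to total recovered reads, by median ratio and by quantiles, pseudocounts of 0.01 and 1, a filter at 1 FPKM or none, adjusted P values, a replicate block, limma-voom on recovered reads, and leaving out each library. The fit was tested on simulated data. Some genes are not reported here.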

Additional observations from a re-analysis of the deposited data

How the results depend on the processing

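With 2 libraries per group, the calls of NEAT1, OIP5-AS1 and CYTOR kept their direction and side of the thresholds under all 15 alternatives. Of these alternatives, median-ratio scaling left every fold change as it was. GAPDH, total-read and quantile scaling lowered the median fold change, so the falls of OIP5-AS1 and CYTOR could hardly turn under them. The direction turned under scaling to GAPDH for MALAT1 (-0.67), TUG1 (-1.37), NORAD (-0.32) and PVT1 (-1.48), and for TUG1 and PVT1 also under total-read scaling (-0.33 and -0.48) and limma-voom on recovered reads (-0.34 and -0.49), since these scalings lower all fold changes. Scaling to GAPDH gave 3002 genes called higher and 9683 lower against 5602 and 4148, 1 and 4 of the RNAs against 2 and 2, 3 and 14 neighbouring genes against 9 and 6, and 1 and 38 list genes against 5 and 10. Total-read scaling gave 6695 genes lower, 1 RNA higher, 4 neighbours higher, and 3 list genes higher and 18 lower. Limma-voom gave 6801 genes lower, 1 RNA higher, 5 neighbours higher, and 3 list genes higher and 19 lower. Quantile normalization gave 1 RNA higher, and 3 list genes higher and 17 lower. Without the filter 8757 genes were called higher. The replicate numbers did not pair the libraries (correlation of deviations 0.00537). The replicate block gave 5667 genes higher and 4186 lower, and 3 of the RNAs higher, MALAT1 being added with an unadjusted P value of 0.0453 (limma). KCNQ1OT1 and CCDC26 could be fitted only without the filter, so their calls were not checked under the other scalings. The shallow GNE987 libraries limit CCDC26 most.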
